A study of Mus musculus with 16 samples.

Results

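The HSP70 and HSP110 family is described here across the mouse retina as 10 genes, Hspa8, Hspa5, Hspa9, Hspa4, Hspa4l, Hsph1, Hspa1a, Hspa1b, Hspa2 and Hspa13, out of 25905 listed in the authors' table of all genes. Members were taken by symbol alone, and all 10 symbols had a row. The libraries came from right-eye retinas of wild type male C57BL/6 mice, of which 8 were flown on the International Space Station and 8 were ground controls kept in the same kind of housing. The labels give an age of 10 weeks, which the methods give as the age of the mice that were flown, and the retinas were taken after the return to Earth, so the mice were older by then. RNA was taken from whole retina, so a member's level is a mean over all retinal cell types, and fewer cells of a type and less RNA per cell cannot be told apart. The columns of counts per library carry codes that match no label of a mouse or group. No comparison of spaceflight with ground control was therefore made here. Those columns were not used, so no spread between mice was computed for any level.

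HSP70 proteins are chaperones that bind stretches of unfolded protein and let go of them in a cycle driven by ATP. J-domain proteins bring the client and start ATP hydrolysis, and nucleotide exchange factors release ADP so that the client can leave. The HSP110 proteins are large relatives of HSP70 that act as exchange factors for it, and photoreceptors, which make large amounts of phototransduction protein, rely on such chaperones for protein quality control.

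The value of each gene is its mean normalized count, which is the authors' mean over all 16 libraries of read counts divided by library size factors. To set genes side by side it was divided by the length of the RefSeq-matched transcript in GENCODE, giving a mean normalized count per kilobase. The level was also computed per kilobase of coding sequence, since long untranslated ends may not be fully covered. All reads of a gene were kept in that value, so long untranslated ends raise it relative to the value per kilobase of transcript. Over the 15907 genes with a length and a mean above 0, the median was 29.3 per kilobase. The tissue label was checked against retinal markers: the rod genes Gnat1 (154477 mean normalized counts) and Sag (29757), the cone opsin Opn1sw (2800) and the Müller glia gene Glul (17455) were all abundant. Some markers of the same cell types were low, with the rod gene Nrl at 88.9, the Müller glia gene Rlbp1 at 1.39 and the cone gene Pde6c at 0.0699. The remaining rod, cone and Müller glia markers had 941 or more. Markers of neighbouring tissue were lower than the abundant retinal genes but present. The 3 lens markers had 161 to 898 mean normalized counts, and of the pigment epithelium markers Ttr had 540, Rpe65 121 and Best1 2.72. The 3 markers of microglia, immune cells that reside in the retina, had 24.9 to 39.0. Their part in the members' levels was not tested.

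Hspa8 encodes HSC70, the constitutive cytosolic HSP70 that also uncoats clathrin vesicles, and it had the highest level of the members. Its mean normalized count was 8922, more than that of 99.7% of the genes above 0, and it lay between Clstn1 at 8843 and Srrm2 at 9094. Per kilobase of transcript Hspa8 stood at 3727, which was 68.6% of the summed listed level, 5431 per kilobase. Hspa5, Hspa2 and Hspa13 add almost nothing to this sum, and since their low values are not read as absence, shares of it compare the other 7 members and are not shares of the whole family. Per kilobase of coding sequence the level was 4604 and the share 58.5%. The level of Hspa8 per kilobase of transcript was 6.02 times that of Hspa9 and 14.1 times that of Hspa4l, and on coding length these ratios were 4.97 and 4.62.

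Hspa9 encodes mortalin, the HSP70 of the mitochondrial matrix, which helps to pull imported proteins through the inner membrane. It followed Hspa8 on transcript length, with a mean normalized count of 1886, or 619 per kilobase, above 96.6% of genes on that scale. Hspa4 (APG-2), Hspa4l (APG-1) and Hsph1 (HSP105) form the HSP110 class. Hspa4l had the most reads of the 3, with 2505 mean normalized counts against 1676 for Hspa4 and 634 for Hsph1. Hspa4l also had the longest transcript of the family, 9479 bases with 2514 coding bases, and its place depended on the length used. Per kilobase of transcript it was 0.728 times Hspa4 (264 against 363), and per kilobase of coding sequence it was 1.5 times Hspa4 (996 against 664). Hsph1 stood at 167 per kilobase of transcript, and Hspa4 was 2.18 times as high on that length and 2.69 times on the coding one. The HSP110 class together reached 794 per kilobase of transcript, 14.6% of the summed listed level, or 24.2% on coding length.

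Hspa1a and Hspa1b encode the heat-inducible cytosolic HSP70, known for very low basal and high stress-induced transcription in many cells. Their mean normalized counts were 478 and 360.2, or 161 and 128 per kilobase of transcript, above 82.5% and 78.3% of genes. Summed, they reached 289.5 per kilobase, 5.33% of the summed listed level, and Hspa8 stood 12.9 times higher. Hspa1a and Hsph1 changed places with the length used, at 161 against 167 per kilobase of transcript and 248 against 246 per kilobase of coding sequence. No spread between libraries was computed, so neighbours this close in level are not ordered.

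**Figure D1:**
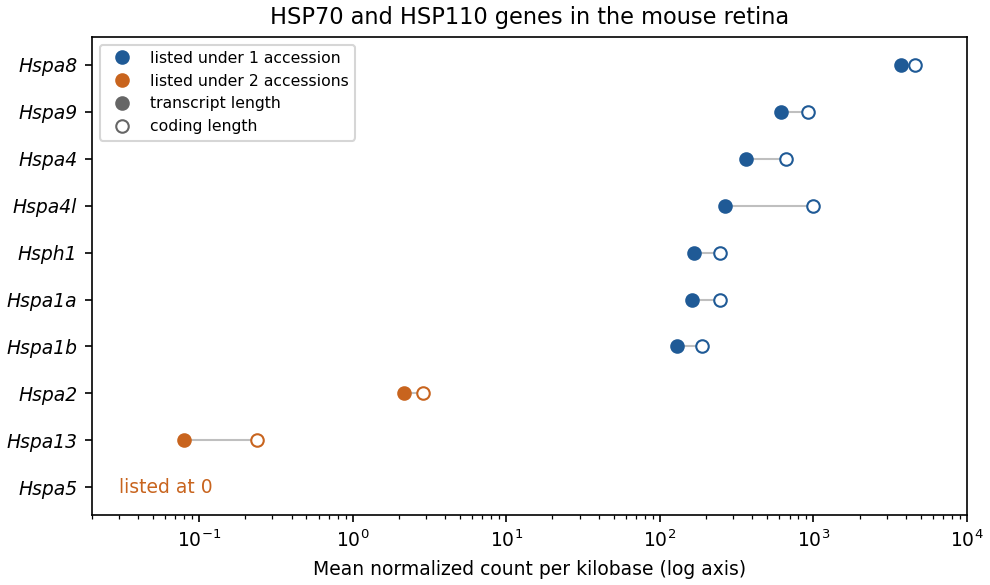
Mean normalized count per kilobase of the 10 members on a log axis. Filled points are for transcript length, open points for coding length, and colour gives the number of accessions listed. Hspa8 stands apart at 3727 per kilobase of transcript, 6 members lie between 128 and 619, Hspa2 and Hspa13 lie at 2.15 and 0.0796, and Hspa5 is listed at 0.

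The 3 remaining members were at or near the floor of the table. Hspa5 encodes BiP, the HSP70 of the endoplasmic reticulum and a textbook sensor of unfolded protein there, and it was listed at 0. Hspa2, best known as the testis-enriched HSP70, had a mean normalized count of 5.43, and Hspa13, a microsomal HSP70-like ATPase, had 0.337. Other genes of the endoplasmic reticulum chaperone system, looked up after the value of Hspa5 was seen, were abundant: Hsp90b1 (GRP94) stood at 5382, Calr (calreticulin) at 3035 and Pdia3, a disulfide isomerase, at 1654 mean normalized counts. Canx, the membrane-bound lectin chaperone calnexin, was listed at 0.

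These low values went together with how the table of counts was laid out. That table has 31616 rows with a transcript accession, and a gene with several transcripts has several rows. The 7 members with means of 360.2 or more each had 1 accession, and the 3 under 10 each had 2. For Hspa13 the second was an identifier other than a RefSeq accession, counted here as an accession. Among the endoplasmic reticulum chaperones, Hsp90b1, Calr and Pdia3 had 1 accession each and Canx had 3.

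The same held across the table. Of 22086 genes with 1 accession, 48.3% had a mean under 10 and 34.0% a mean of at least 100, with a median of 12.9. Of 2704 genes with 2 accessions, 2029 (75%) were under 10 and 8.95% at 100 or more, with a median of 0.652. The 1090 genes with 3 or more accessions had 76.1% under 10 and a median of 1.27. Cell type markers, of the retina and of neighbouring tissue and blood, split the same way. Tfap2a and Pmel had no row under those symbols. Tcfap2a, an earlier symbol of Tfap2a, was listed with 2 accessions and a mean of 33.9. Neither Tfap2a nor Pmel is among the markers counted. Of 34 with 1 accession 2 were under 10, the pigment epithelium gene Best1 at 2.72 and the red blood cell gene Hba-a1 at 0.213, against 4 of 6 with more. Those 4 were the cone phosphodiesterase gene Pde6c at 0.0699, the Müller glia gene Rlbp1 at 1.39, the ganglion cell gene Rbpms at 5.53 and the endothelial gene Pecam1 at 0.446 mean normalized counts. Exceptions went the other way, since the bipolar cell channel gene Trpm1 had 2 accessions and a mean of 2866. The ranks of members given above were taken over genes with any number of accessions. Ranks among genes with 1 accession alone were not computed.

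**Figure D2:**
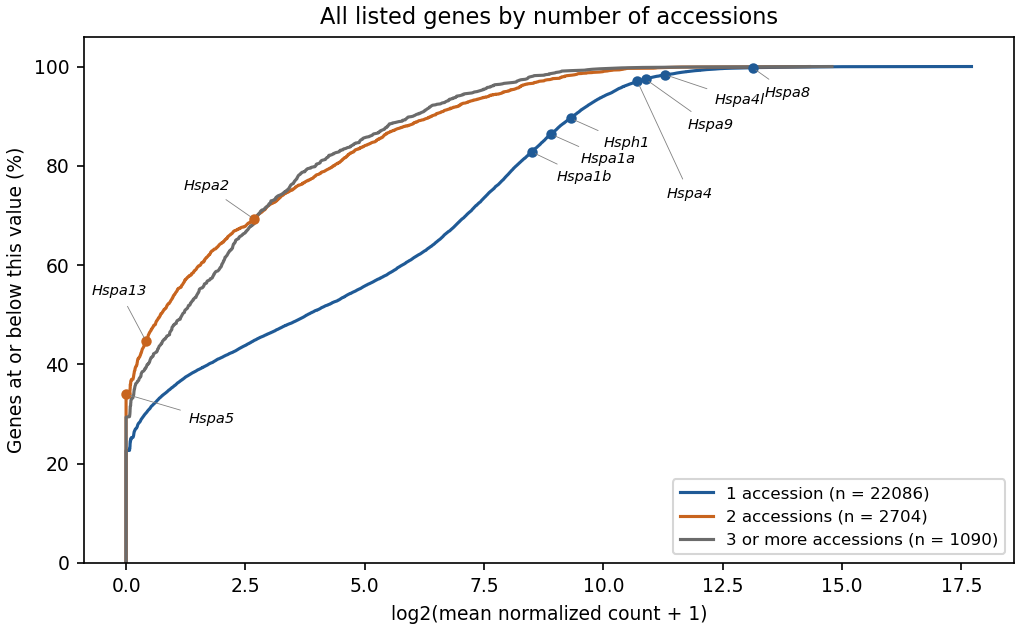
Cumulative share of listed genes (percent) against log2 of the mean normalized count plus 1, drawn separately for genes with 1, 2 and 3 or more accessions, with members marked on the curve of their class. The curve of genes with 2 accessions runs above and to the left of that for 1 accession. Hspa5, Hspa13 and Hspa2 lie on the curve for 2 accessions at 0, 0.337 and 5.43, with Hspa2 above its median of 0.652.

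The split was graded by how much sequence told the 2 transcripts of a gene apart. The classes cover genes whose 2 accessions each matched exactly 1 GENCODE transcript, and different ones. Genes with an accession that matched none or several were left out of the classes. For each gene kept, the share of 75-base windows, the length of the reads, held by only 1 of the 2 transcripts was computed. Where that share was 5% or less, 88.9% of 90 genes had a mean under 10 and the median was 0.413. The percentage under 10 was 84.5% of 744 genes at a share of 5% to 25%, 68.2% of 384 at 25% to 50%, 53.6% of 371 at 50% to 75% and 24.4% of 168 above 75%, where the median was 80.9. The 2 transcripts of Hspa2, 2524 and 2526 bases long, differed in 9.04% of their windows, which puts the gene in the second-lowest class. Both accessions of Hspa5 matched the same GENCODE transcript, as in 184 genes, of which 85.3% were under 10 and 43.5% were at 0. The second identifier of Hspa13 matched no transcript, so it was not placed. How the authors counted a read that fits several accessions of 1 gene, and how rows were joined into symbols, is not given in the sources used here, so a value near 0 for Hspa5, Hspa2 or Hspa13 is not read as absence of the transcript.

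**Figure D3:**
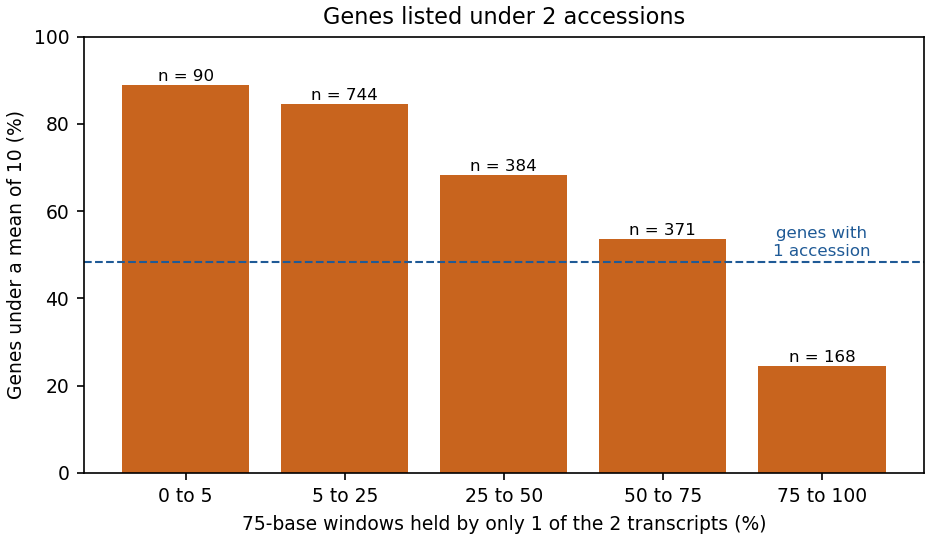
Percentage of genes with a mean normalized count under 10 among genes listed under 2 accessions, by the percentage of 75-base windows held by only 1 of the 2 transcripts, with the dashed line at 48.3% for genes with 1 accession. The genes shown are those whose 2 accessions each matched exactly 1 transcript, and different ones. The bars fall from 88.9% to 24.4%, and only the last lies below the line.

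Reads of Hspa8, Hspa1a and Hspa1b can also match other genes. Of the 2320 windows of 75 bases in the Hspa8 transcript, 1591 (68.6%) were identical to sequence of 11 genes elsewhere on the reference, 10 of them processed pseudogenes. The closest, Gm15459, held 64.3% of the windows, and Gm26825, annotated as a lincRNA, held 63.2%. Sharing was concentrated in the coding part, at 84.4% of 1864 windows, against 3.73% of the 456 windows that reach into untranslated sequence. Hspa1a and Hspa1b shared 1524 windows with each other, 52.7% of Hspa1a and 55.8% of Hspa1b. For Hspa1a a further 7.47% of windows were shared only with Gm20481, a gene that overlaps it. Hspa9 shared 0.336% of its windows, with the pseudogene Hspa9-ps1, and Hspa4l 0.181%, while the other 5 members shared 0. How reads that fit several places were treated is not given in the sources used here, and the part of this sharing in the levels of Hspa8, Hspa1a and Hspa1b was not tested.

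**Figure D4:**
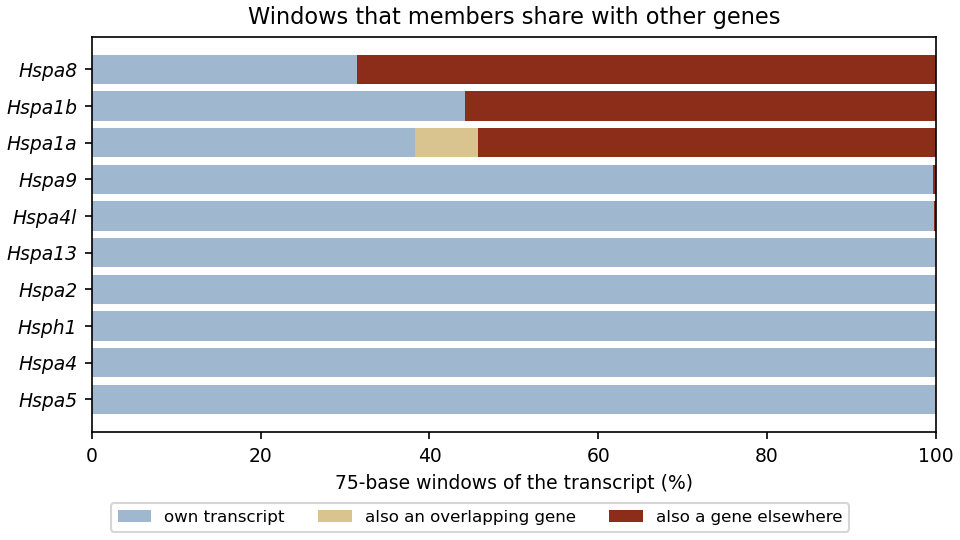
Percentage of 75-base windows of each member's transcript that are its own, that also lie in an overlapping gene, or that also lie in a gene elsewhere on the reference. Hspa8 has 31.4% of its windows to itself, Hspa1a 38.3% and Hspa1b 44.2%, and the other 7 members have nearly all of theirs.

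The Hspa8 stretches below are shown because they are a contrasting pair of read-length windows. The first, in exon 3, is repeated in 6 genes elsewhere, and the second, in exon 2, is 1 of 159 of the 1346 coding windows lying within an exon that no gene elsewhere holds. Both are on the plus strand of GRCm38, at chr9:40802449-40802523 (coding bases 237 to 311) and chr9:40801962-40802036 (coding bases 40 to 114), and carry no capitals.
Hspa8, shared: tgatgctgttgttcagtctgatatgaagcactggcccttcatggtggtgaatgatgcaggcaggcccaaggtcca
Hspa8, own: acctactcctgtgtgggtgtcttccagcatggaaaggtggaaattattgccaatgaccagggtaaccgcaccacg

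Hspa1a and Hspa1b lie close together on chromosome 17 and have nearly the same coding sequence. Over 1923 aligned coding bases 1915 were identical (99.6%), with 8 substitutions and a gap of 3 bases. Counted from the A of the start codon of Hspa1a, with its base first and that of Hspa1b last, these were A156G, T795G, A921G, A1380G, A1416G, A1629G, C1881G and G1884A. The longest identical run was 638 bases, from position 157 to 794, so a read from inside it cannot be given to either gene. The pair below is a read-length window that holds 2 of the differences, and capitals mark the differing bases A1380G and A1416G. Both lie in exon 1 on the minus strand of GRCm38, at chr17:34970510-34970584 for Hspa1a and chr17:34957592-34957666 for Hspa1b, coding bases 1342 to 1416.
Hspa1a: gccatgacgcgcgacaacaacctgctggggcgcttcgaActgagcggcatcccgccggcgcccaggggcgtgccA
Hspa1b: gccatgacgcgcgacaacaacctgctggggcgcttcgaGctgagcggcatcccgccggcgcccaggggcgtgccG

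The ratio of Hspa1a to Hspa1b was 1.25 per kilobase of transcript and 1.33 per kilobase of coding sequence. It rests on reads from the parts that differ, or on how shared reads were placed. It is therefore not read as a difference between the copies. Their sum depends in turn on whether shared reads were kept, dropped or counted for both, which is not given. Other pairs of members were far less alike. Coding identity to Hspa2 was 79.9% for Hspa1b, 79.8% for Hspa1a and 75.3% for Hspa8, and Hspa8 was 74.4% identical to Hspa1a and 65.3% to Hspa5. Within the HSP110 class it was 66.9% for Hspa4 and Hspa4l, 64.2% for Hspa4 and Hsph1 and 62.6% for Hspa4l and Hsph1. None of these pairs outside Hspa1a and Hspa1b shared a 75-base window.

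Promoter windows from RefSeq (GRCm38.p6), 250 bases before to 50 after the start site, were at hand for 7 members. The heat shock element, to which the heat shock factors bind, was searched on both strands. It was written as 3 adjoining GAA units in alternating orientation, with the units 2 bases apart. All motifs had to match their fixed letters exactly, so an element with a differing base in a unit was not counted. The exact 3-unit form was found in Hsph1 alone of the 7, after the start site in each of its windows, and in 0.597% of all 32851 windows. A form with 2 inverted units, GAA followed by TTC, is contained in every 3-unit match. It was found in Hsph1, Hspa1a and Hspa1b and in 7.80% of all windows. The opposite order, TTC followed by GAA, was not searched as a 2-unit form. In Hspa1a and Hspa1b the match of GAA followed by TTC began 105 bases before the start site. The endoplasmic reticulum stress response element, a CCAAT box and a CCACG motif set 9 bases apart, was found in Hspa5, beginning 65 bases before the start site, and in 0.119% of all windows. A match in letters is a description and says nothing of binding in these retinas.

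The 250 bases before the start of Hspa1a and Hspa1b were identical at 247 positions (98.8%), so the copies are alike upstream as well as in the coding part. The Hspa1a stretch is given because it stands for both copies, on the minus strand at chr17:34972157-34972406 of GRCm38.p6, with the fixed letters of the 2-unit heat shock element in capitals.
Hspa1a, upstream: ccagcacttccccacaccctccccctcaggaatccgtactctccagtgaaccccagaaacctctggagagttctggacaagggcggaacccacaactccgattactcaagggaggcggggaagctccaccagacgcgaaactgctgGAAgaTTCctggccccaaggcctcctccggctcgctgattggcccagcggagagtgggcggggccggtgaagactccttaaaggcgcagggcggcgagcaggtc

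The partners of HSP70 were described from lists of J-domain proteins, exchange factors, other cofactors and further HSP70 genes. Of 17 J-domain genes, the 11 with 1 accession had means of 272 to 2698 with a median of 444. The highest per kilobase of transcript were Dnajc7 at 631, which links HSP70 to HSP90, Dnaja2 at 515, a general cytosolic partner, and Dnajc5 at 410, the cysteine string protein of synaptic vesicles. Per kilobase of coding sequence the order of these turned, with Dnajc5 at 4542, Dnaja2 at 1217 and Dnajc7 at 992. On that length Dnajc5 came close to Hspa8 at 4604, but per kilobase of transcript the 2 genes stood at 410 and 3727. The 6 J-domain genes with several accessions ranged from 2.09 for Dnaja3 to 119 for Dnajb6. Of the exchange factors, 9 of 10 had a row under the symbol searched, and Bag6 had none, which is not read as absence. The 8 with 1 accession had means of 50.5 to 365, and Bag1, with 2 accessions, was listed at 0. The highest per kilobase of transcript were Bag5 at 142, Sil1, the exchange factor of BiP, at 130, and Hspbp1 at 74.9, against 167 for Hsph1, 264 for Hspa4l and 363 for Hspa4, the HSP110 genes that share their role. Per kilobase of coding sequence the highest were the mitochondrial Grpel1 at 399 and Grpel2 at 369 and the cytosolic Bag4 at 266, all above Hsph1 at 246 and below Hspa4 at 664.

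The other cofactors all had 1 accession, with means of 191 to 1966. Stip1 (HOP), which bridges HSP70 and HSP90, stood at 728 per kilobase of transcript, St13 (HIP) at 587, and Stub1 (CHIP), the ubiquitin ligase bound to HSP70, at 356. Per kilobase of coding sequence St13 came first at 1766, with Stip1 at 942 and Stub1 at 704. The heat shock factors Hsf1 and Hsf2 stood at 182 and 73.2 per kilobase of transcript. Among the further HSP70 genes, Hspa12a, a distant brain-enriched relative, reached 403 per kilobase of transcript and 1140 per kilobase of coding sequence, and Hspa14 and Hyou1, the exchange factor of the endoplasmic reticulum, both 198 per kilobase of transcript. Hspa12b stood at 7.72 per kilobase of transcript, and Hspa1l, the testis gene next to Hspa1a and Hspa1b, at 1.12, although it too had 1 accession. Over these 4 lists, 1 of 29 genes with 1 accession had a mean under 10, and 3 of 7 with several.

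**Figure D5:**
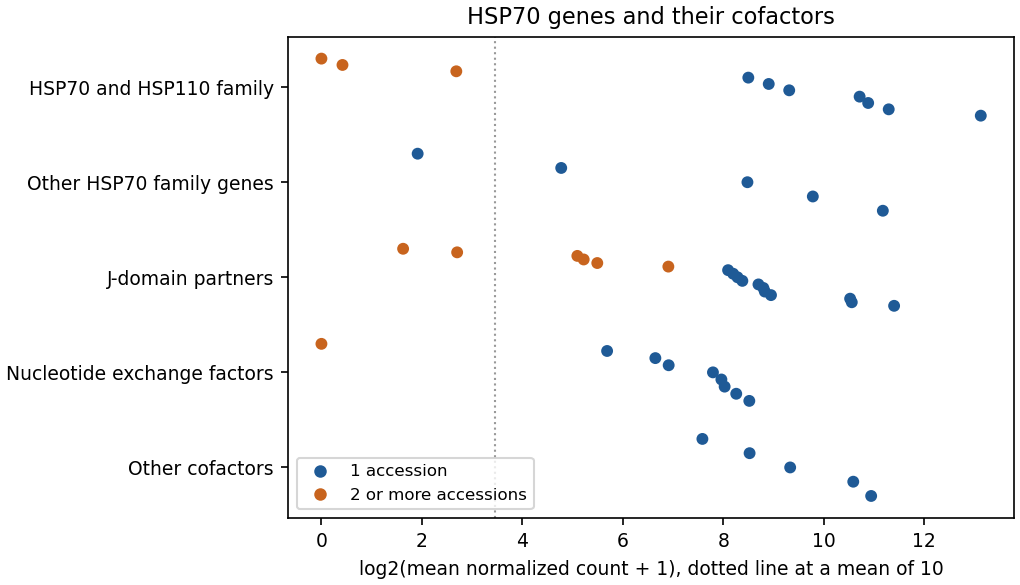
Log2 of the mean normalized count plus 1 for members, further HSP70 genes and the 3 lists of partners, 1 point a gene, coloured by the number of accessions, with a dotted line at a mean of 10. All 7 members with 1 accession lie right of the line and all 3 with 2 accessions left of it, and in the lists 1 of 29 and 3 of 7 lie left of it.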

How the data were processed

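RNA of 16 right-eye retinas, 8 a group, was made into stranded libraries and sequenced by the study. Per the labels and the methods, the authors used Trimmomatic for trimming, TopHat2 for alignment and HTSeq for counting, and scaled the counts in DESeq2 1.22.2 (R 3.5.1). The deposited value used here is a signal: each library's count was divided by a size factor and the 16 quotients were averaged by the authors. The 16 count columns in each of the 2 count tables (32 in all) carry codes that match no label and were not used. Depth per library was therefore not computed, and the planned edgeR test was not run. The 5 columns of the authors' own comparison (fold-changes, errors, test statistics and p-values) were not used.

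Accessions per symbol were counted in the table of counts, where 25 symbols matched no row. Lengths, coding sequences and windows came from GENCODE transcripts (GRCm38), a later build than the authors mapped to, matched by accession. Promoters came from RefSeq (GRCm38.p6). Scripts ran in Python 3.11.15 with numpy 2.4.6 and pandas 2.3.3 and were tested on simulated data. The members and lists were chosen with earlier results of these data known. All members were named, with the 3 highest per kilobase of transcript in each list, those that changed places on coding length, and any gene a statement on a member needed. The endoplasmic reticulum chaperones were chosen after the value of Hspa5 was seen.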

Additional observations from a re-analysis of the deposited data

How the results depend on the processing

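No error between mice was computed for the levels, and the windows were read from a later genome build than the reads were mapped to. On coding length in place of transcript length the summed listed level was 7874 per kilobase in place of 5431, and the share of Hspa8 was 58.5% in place of 68.6%; by reads without division by length it was 54.2%. With 2 heat shock units (GAA followed by TTC) in place of 3, the element was found in 3 members in place of 1. Among genes with curated accessions alone, chosen after seeing the data, 69.5% of those with 2 accessions and 38.9% of those with 1 had a mean under 10. Hspa13 was not among these genes, since its second identifier is not a curated accession. With windows of 50 bases in place of 75, also chosen after seeing the data, 74.8% of Hspa8, 60.3% of Hspa1a and 62.3% of Hspa1b was shared. The 7 members with 1 accession were above the median gene among genes above 0 and among those with a mean of at least 10. No paired analysis was possible because the count columns carry no label of a mouse, and for the same reason the edgeR and DESeq2 fits, with their normalization, filter, threshold, block and GC alternatives, were not run. Identity was computed on coding bases, and that between proteins was not run.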
